A study of Homo sapiens with 16 samples.

Results

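Transcript levels of 9 genes that remodel the extracellular matrix were followed in MDA-MB-231 cells, an established human line of triple-negative breast cancer, with and without the circadian clock gene BMAL1. The genes were the matrix metalloproteases MMP1, MMP3 and MMP14, their inhibitors TIMP1, TIMP2 and TIMP3, the plasminogen activators PLAU and PLAT, and PLAUR, the surface receptor of PLAU. They were picked by symbol from the gene tables of the series, where each symbol occurred on 1 of 60658 rows. BMAL1 -/- (KO) cells and wild-type (WT) cells were each studied as control cultures and after cisplatin, doxorubicin or tunicamycin. Cisplatin crosslinks DNA, doxorubicin intercalates into DNA and poisons topoisomerase, and tunicamycin blocks N-linked glycosylation. RNA was sequenced from 16 samples in 8 groups of 2 that the labels call biological replicates, all at passage 10 to 15. The sources used here give no dose, no exposure time, no description of the BMAL1 edit and no number of KO clones. Effects of the genotype and of a clone or culture therefore cannot be told apart.

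Matrix metalloproteases are zinc endopeptidases that are made as inactive proenzymes and cut collagens and other matrix proteins once activated. TIMPs bind active metalloproteases and block them. Urokinase (PLAU) and tissue-type plasminogen activator (PLAT) turn plasminogen into plasmin, a broad protease that can also activate some metalloprotease proenzymes, and PLAUR holds urokinase at the cell surface. In breast cancer these systems are best known for their part in invasion and metastasis.

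The authors deposited 1 table per treatment, with 1 value per group and gene in FPKM, a read level scaled to transcript length and library size. Values per replicate are not in these tables, and none of the levels below carries an SD. Each table holds the authors' Cuffdiff test of KO against WT, and genes with a q-value of at most 0.05 are referred to as called. That test measures only the spread Cuffdiff estimated between the samples. The smallest q of a table was shared by 3044 to 4267 genes, so it does not rank the genes that have it. ARNTL, the symbol of BMAL1 in the tables, was lower in KO cells in the control table (0.889 FPKM in KO cells and 5.67 FPKM in WT cells, q = 0.000213 in the authors' deposited table) and in the doxorubicin table (q = 0.00509 in the authors' deposited table), but did not pass in cisplatin (0.941 FPKM in KO cells and 1.26 FPKM in WT cells) or tunicamycin (2.24 FPKM in KO cells and 3.25 FPKM in WT cells). The transcript need not be lost in a cell that lacks the protein, so this level does not by itself check the edit. Of 6 fibroblast markers, DCN, LUM, COL3A1 and PDGFRA stayed under 0.1 FPKM in all 8 groups, although the extraction protocol speaks of fibroblasts. COL1A2 reached at most 0.0825 FPKM in KO groups and 0.303 FPKM in WT groups. COL1A1 was at 5.74, 9.70, 1.44 and 5.79 FPKM in KO cells and 2.32, 7.30, 0.152 and 2.15 FPKM in WT cells in control, cisplatin, doxorubicin and tunicamycin. It was called higher in KO cells in every table but cisplatin (log2 ratio 1.31, 3.24 and 1.43 in the authors' deposited tables), and the part of such cells in the results was not tested. All 6 fibroblast markers summed to 1.56 to 9.72 FPKM in KO groups and 0.277 to 7.40 FPKM in WT groups. The 6 leukocyte markers summed to 172 to 435 FPKM in KO groups and 65.0 to 236 FPKM in WT groups, nearly all of it CD68, while PTPRC and CD3E stayed under 0.1 FPKM. The 4 endothelial markers summed to 1.76 to 10.7 FPKM in KO groups and 0.397 to 0.951 FPKM in WT groups. PECAM1 was called higher in KO cells in all 4 tables, and VWF stayed under 0.1 FPKM. Between 19007 and 22592 genes were above 0 per group. Counts per library are not given, so the depth behind a value is unknown.

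KO and WT cells differed in the make-up of these transcripts, and the families were not of 1 direction: MMP1 and TIMP2 were lower in KO cells, TIMP1, TIMP3 and PLAUR were higher, and PLAU was higher except in tunicamycin. In control cultures the test called 4 of the 9 genes higher in KO cells and 2 lower, against a background of 43.8% of all tested genes called (22.7% higher and 21.1% lower). In cisplatin 4 were higher and 4 lower, with 49.6% of all tested genes called (25.4% higher and 24.2% lower). In doxorubicin 4 were higher and 4 lower, with 45.1% called (24.4% higher and 20.7% lower). In tunicamycin 3 were higher and 3 lower of 8 tested genes, with 49.3% called (27.2% higher and 22.1% lower). The median log2 ratio of KO over WT FPKM over the tested genes of the set was 0.04, -0.53, 0.03 and -0.04 in control, cisplatin, doxorubicin and tunicamycin, beside 0.01, 0.02, 0.04 and 0.03 over all tested genes. TIMP1, TIMP3 and PLAUR were called higher in all 4 tables, and MMP1 and TIMP2 were called lower in all 4. Those are 5 of the 9 genes, 8 of which were tested in every table. Of 10881 genes tested in every table, 17.7% were called in the same direction in all 4. In these bulk samples, fewer cells that make a transcript cannot be told apart from less of it per cell.

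**Figure D1:**
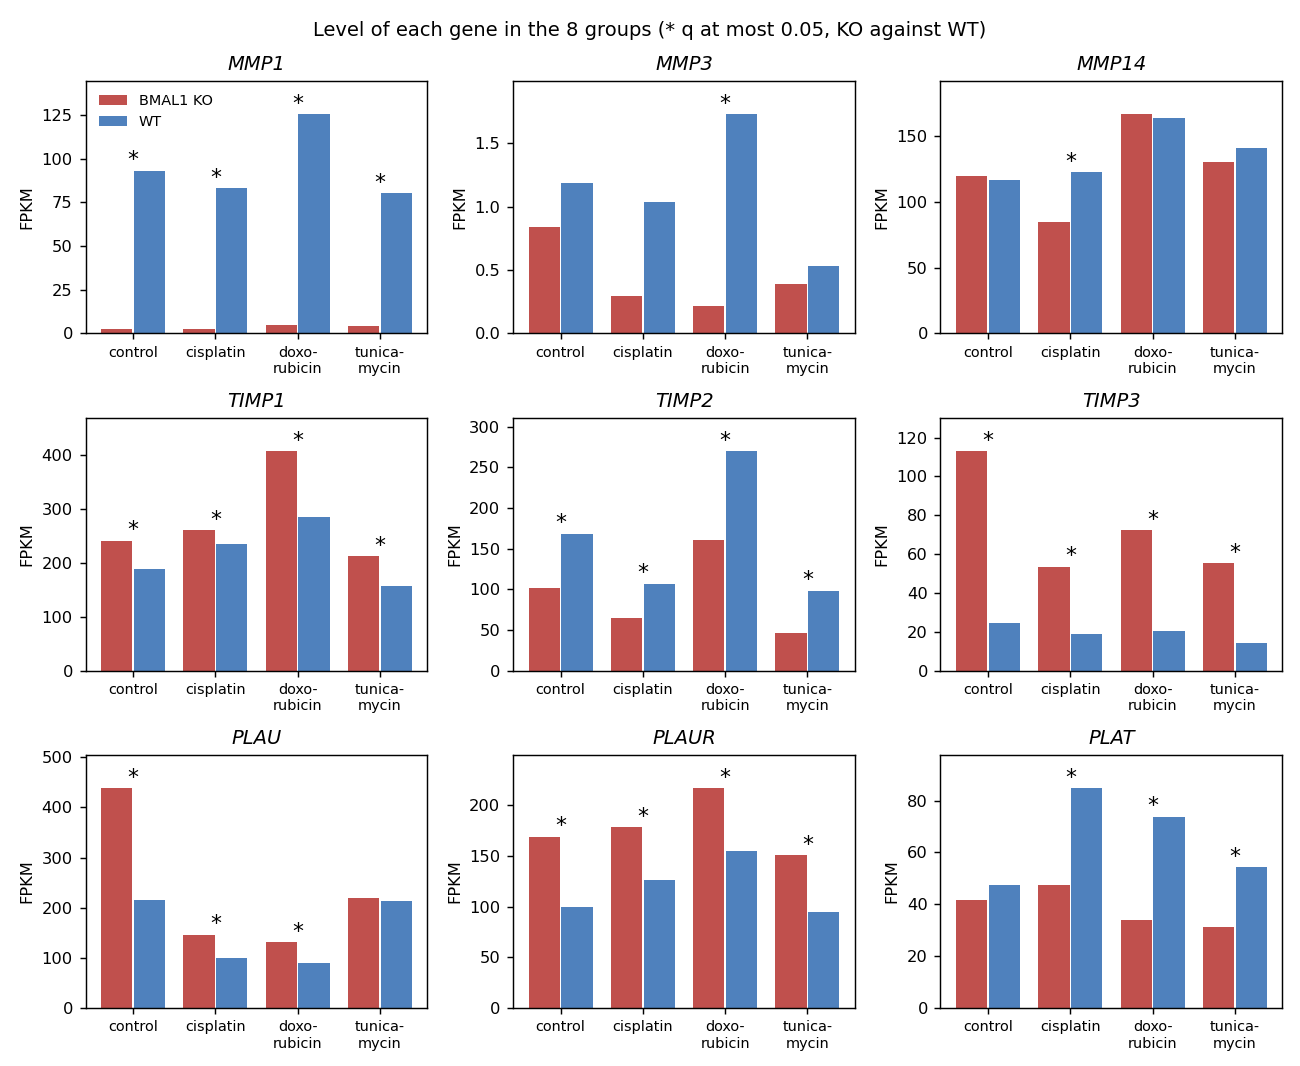
FPKM (vertical axis, linear from 0) of the 9 genes in the 4 treatments, with 1 bar per group for BMAL1 KO cells (red) and WT cells (blue) and a star where the authors' q was at most 0.05. MMP1 stood between 2.62 and 4.68 FPKM in KO groups and between 80.3 and 126 FPKM in WT groups, while TIMP3 showed the opposite order.

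MMP1, the interstitial collagenase that opens fibrillar collagen, had the largest difference of the 9 genes in every table. KO cells held 2.62 FPKM in control, 2.76 FPKM in cisplatin, 4.68 FPKM in doxorubicin and 4.21 FPKM in tunicamycin. WT cells held 93.1, 83.2, 126 and 80.3 FPKM in the same order. All 4 KO groups therefore lay far below all 4 WT groups. MMP1 was 35.5-fold lower in KO cells in control, 30.1-fold lower in cisplatin, 26.8-fold lower in doxorubicin and 19.1-fold lower in tunicamycin, and its q was 0.000213, 0.000167, 0.000186 and 0.000173 in the authors' deposited tables.

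MMP1 lies on chromosome 11, 102789920 to 102798160 (whole gene, minus strand, GRCh38), in the metalloprotease cluster of that arm. The other cluster genes were barely detected in either genotype. MMP7 and MMP27 were listed at 0 in all 8 groups, and MMP20, MMP8, MMP12 and MMP13 had at most 0.125 FPKM in KO groups and 0.0646 FPKM in WT groups. MMP10 reached 0.190 FPKM in KO groups and 0.461 FPKM in WT groups. The other tested genes within 5 Mb of MMP1, 17 to 20 per table, had median log2 ratios of 0.00 to 0.28. A median does not describe each gene, and MMP3 of the same cluster, given next, was also the lower value in KO cells in each pair. The pseudogene WTAPP1 overlaps MMP1 on the opposite strand and stayed at or below 0.0361 FPKM.

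MMP3 (stromelysin-1), which cuts many matrix proteins and can activate the MMP1 proenzyme, is the next expressed gene of the cluster but was low throughout, at under 2 FPKM. It had 0.841, 0.298, 0.220 and 0.387 FPKM in KO cells in control, cisplatin, doxorubicin and tunicamycin, against 1.19, 1.03, 1.73 and 0.531 FPKM in WT cells. KO was the lower value in each pair, but the KO and WT ranges overlapped across treatments. MMP3 was called in doxorubicin alone, where it was 7.86-fold lower in KO cells (q = 0.00562 in the authors' deposited table). The q was 0.748 in control and 0.0609 in cisplatin in the authors' deposited tables. In tunicamycin the authors did not test MMP3. The gene lies on chromosome 11, 102835801 to 102843803 (whole gene, minus strand, GRCh38).

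MMP14 (MT1-MMP), the membrane-anchored collagenase that activates pro-MMP2 with the help of TIMP2, was called in 1 of the 4 tables. Its level was 120, 84.9, 167 and 130 FPKM in KO cells and 116, 122, 164 and 141 FPKM in WT cells in control, cisplatin, doxorubicin and tunicamycin. The cisplatin pair was the one called, 1.44-fold lower in KO cells (log2 ratio -0.53, q = 0.000167 in the authors' deposited table). In tunicamycin the q of MMP14 was 0.0508 in the authors' deposited table, just past the threshold, and it was 0.365 in control and 0.523 in doxorubicin. MMP2, the main proenzyme that MMP14 activates, was at most 0.0111 FPKM in any group. MMP14 lies on chromosome 14, 22836557 to 22849027 (whole gene, plus strand, GRCh38), where the other tested genes within 5 Mb had median log2 ratios of 0.22 to 0.35.

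**Figure D2:**
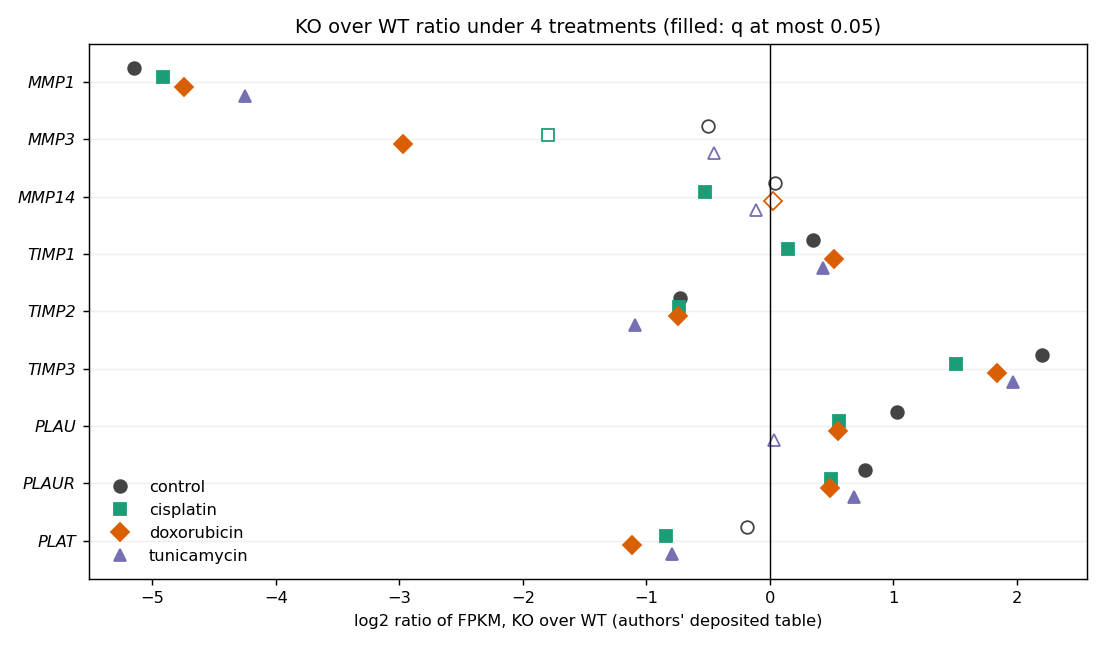
log2 ratio of KO over WT FPKM (horizontal axis) of each gene in the 4 treatments, from the authors' deposited tables; filled symbols had a q of at most 0.05, and open symbols did not or were not tested. MMP1 lay between -5.15 and -4.25, TIMP3 between 1.51 and 2.20, and PLAT and PLAU spread more between treatments than TIMP2 in control, cisplatin and doxorubicin.

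The TIMP genes were called in different directions. TIMP3, the inhibitor that stays bound to the matrix, was called higher in KO cells in all 4 tables. It reached 113 FPKM in control, 53.5 FPKM in cisplatin, 72.2 FPKM in doxorubicin and 55.3 FPKM in tunicamycin in KO cells. WT cells had 24.5, 18.8, 20.2 and 14.1 FPKM in the same order, and no KO group fell within the WT range. TIMP3 was 4.61-fold higher in control, 2.84-fold in cisplatin, 3.58-fold in doxorubicin and 3.93-fold in tunicamycin, each at the smallest q of the authors' deposited table.

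TIMP1, a secreted inhibitor of most metalloproteases, was called higher in KO cells in all 4 tables by a smaller amount. It had 241, 260, 407 and 212 FPKM in KO cells and 189, 235, 285 and 157 FPKM in WT cells in control, cisplatin, doxorubicin and tunicamycin. The genotypes overlapped across treatments, and the ratio lay between 1.11-fold in cisplatin and 1.43-fold in doxorubicin, each at the smallest q of the authors' deposited table. TIMP2, which inhibits metalloproteases and also takes part in pro-MMP2 activation, was called lower in all 4 tables. It stood at 101, 64.1, 161 and 46.1 FPKM in KO cells and 168, 107, 270 and 98.3 FPKM in WT cells. Its log2 ratio was -0.73, -0.74, -0.75 and -1.09 in the authors' deposited tables, each at the smallest q and nearly the same in the first 3 treatments.

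TIMP1 (chromosome X, 47582313 to 47586789, plus strand), TIMP2 (chromosome 17, 78852977 to 78925387, minus strand) and TIMP3 (chromosome 22, 32801701 to 32863043, plus strand) are given as whole genes on GRCh38. TIMP1 and TIMP3 lie within synapsin genes of the opposite strand. Without strand, reads of overlapping genes cannot be told apart, and whether counting used strand is not known. SYN1, the host of TIMP1, had at most 0.0701 FPKM, and SYN3, the host of TIMP3, at most 0.0505 FPKM. TIMP2 overlaps the short antisense gene AC022966.1, which was listed at 11.9, 7.61, 26.0 and 2.23 FPKM in KO cells and 0, 20.1, 19.5 and 18.7 FPKM in WT cells. Its part in the TIMP2 value was not tested. The other tested genes within 5 Mb had median log2 ratios of 0.07 to 0.20 around TIMP1, -0.03 to 0.12 around TIMP2 and 0.06 to 0.34 around TIMP3.

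RefSeq promoter windows (GRCh38.p14) were searched for MMP14, TIMP1, TIMP3, PLAU and PLAUR, which is 5 of the 9 genes. None was at hand for MMP1, MMP3 or TIMP2, and PLAT was left out of the search. The 250 bases before the start are printed for TIMP1, TIMP3 and PLAUR, which were called higher together in all 4 tables, and for 1 of the PLAU starts. Capitals mark matches to the AP-1 motif TGANTCA and the PEA3 motif AGGAAG of ETS factors, on either strand.
TIMP1 (chrX:47582186-47582435, plus strand): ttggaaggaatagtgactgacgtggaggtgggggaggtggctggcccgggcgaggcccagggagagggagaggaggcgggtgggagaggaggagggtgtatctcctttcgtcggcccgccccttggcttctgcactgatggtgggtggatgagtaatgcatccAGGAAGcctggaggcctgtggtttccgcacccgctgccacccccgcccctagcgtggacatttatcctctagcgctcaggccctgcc
TIMP3 (chr22:32801455-32801704, plus strand): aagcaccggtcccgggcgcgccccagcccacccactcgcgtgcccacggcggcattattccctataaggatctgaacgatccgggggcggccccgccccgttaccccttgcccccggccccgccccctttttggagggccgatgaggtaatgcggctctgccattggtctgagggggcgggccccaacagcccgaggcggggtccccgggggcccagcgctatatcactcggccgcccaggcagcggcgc
PLAUR (chr19:43670170-43670419, minus strand): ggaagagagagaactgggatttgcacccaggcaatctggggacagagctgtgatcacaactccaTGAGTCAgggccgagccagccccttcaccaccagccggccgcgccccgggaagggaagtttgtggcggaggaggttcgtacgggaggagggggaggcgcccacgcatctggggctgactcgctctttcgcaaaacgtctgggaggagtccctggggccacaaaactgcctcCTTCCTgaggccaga
PLAU (chr10:73910882-73911131, plus strand): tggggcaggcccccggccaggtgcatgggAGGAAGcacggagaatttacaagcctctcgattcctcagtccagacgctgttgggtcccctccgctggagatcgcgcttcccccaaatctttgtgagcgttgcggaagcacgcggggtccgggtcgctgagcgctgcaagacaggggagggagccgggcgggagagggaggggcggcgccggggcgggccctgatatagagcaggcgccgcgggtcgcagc
PLAUR held 1 AP-1 match at position -186 from its start and 1 PEA3 match at -15. TIMP1 held a PEA3 match at -87 and PLAU at -221, while the TIMP3, MMP14 and other PLAU windows held none of the motifs searched. The E-box CACGTG, the form bound by BMAL1 with CLOCK, and the TATA box TATAAA had no match in the 6 windows of 300 bases. Among 35116 windows of that length in the RefSeq table, 7.71% held the AP-1 motif, 33.6% the PEA3 motif, 7.26% the E-box and 11.5% the TATA box. The motifs do not overlap in the printed windows.

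The plasminogen activator genes divided as well. PLAU (urokinase) was the most abundant of the 9 genes in untreated KO cells. Its level was 438 FPKM in control, 146 FPKM in cisplatin, 131 FPKM in doxorubicin and 218 FPKM in tunicamycin in KO cells. In WT cells it was 215, 98.9, 89.4 and 214 FPKM. PLAU was called 2.04-fold higher in KO cells in control, 1.47-fold in cisplatin and 1.46-fold in doxorubicin, with q = 0.000213, 0.000167 and 0.000186 in the authors' deposited tables. In tunicamycin both genotypes stood at nearly the same level (log2 ratio 0.03, q = 0.275 in the authors' deposited table). PLAU lies on chromosome 10, 73909177 to 73917497 (whole gene, plus strand, GRCh38). C10orf55, which overlaps it on the opposite strand, was at most 1.14 FPKM, and the other tested genes within 5 Mb had median log2 ratios of -0.02 to 0.10.

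PLAUR, the urokinase receptor, was called higher in KO cells in all 4 tables. KO cells had 169, 178, 217 and 151 FPKM and WT cells 99.3, 126, 155 and 94.1 FPKM in control, cisplatin, doxorubicin and tunicamycin. The ratio was 1.70-fold, 1.41-fold, 1.40-fold and 1.60-fold in that order, each at the smallest q of the authors' deposited table, so it varied less between treatments than that of PLAU. PLAUR lies on chromosome 19, 43646095 to 43670547 (whole gene, minus strand, GRCh38), and the other tested genes within 5 Mb had median log2 ratios of -0.13 to 0.13.

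PLAT was called lower in KO cells under each drug. It had 41.7, 47.3, 34.0 and 31.4 FPKM in KO cells and 47.5, 84.8, 73.8 and 54.2 FPKM in WT cells in control, cisplatin, doxorubicin and tunicamycin. As deposited, all 4 KO groups lay below all 4 WT groups, narrowly between KO cisplatin and WT control, but values from different tables share no scaling. Rescaled by the median-of-ratios factors used for the drug responses below (0.764 for KO doxorubicin and 1.13 for WT control), KO doxorubicin lay above WT control. The control pair did not pass (log2 ratio -0.19, q = 0.0546 in the authors' deposited table). PLAT was called 1.80-fold lower in KO cells in cisplatin, 2.17-fold lower in doxorubicin and 1.73-fold lower in tunicamycin, each at the smallest q of the authors' deposited table. PLAT lies on chromosome 8, 42175233 to 42207724 (whole gene, minus strand, GRCh38), where the median log2 ratio of the other tested genes within 5 Mb was also below 0, at -0.39, -0.34, -0.25 and -0.24 in control, cisplatin, doxorubicin and tunicamycin. With the neighbours' median subtracted, the PLAT log2 ratio in control was 0.20 in place of -0.19, while the 3 called ratios stayed below 0. The part of this neighbourhood in the PLAT result was not tested.

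Shares within a group do not depend on how the tables were scaled, and FPKM is per length, so levels of different genes can be set side by side. MMP1 made up 1.99% of the summed FPKM of 23 metalloprotease genes in untreated KO cells and 42.9% in untreated WT cells. Across treatments its share was 1.99% to 2.96% in KO groups and 35.3% to 42.9% in WT groups. MMP14 took up 90.5% to 91.5% in KO groups and 53.5% to 61.8% in WT groups. The metalloprotease sum was 93.8 to 182 FPKM in KO groups and 215 to 299 FPKM in WT groups.

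**Figure D3:**
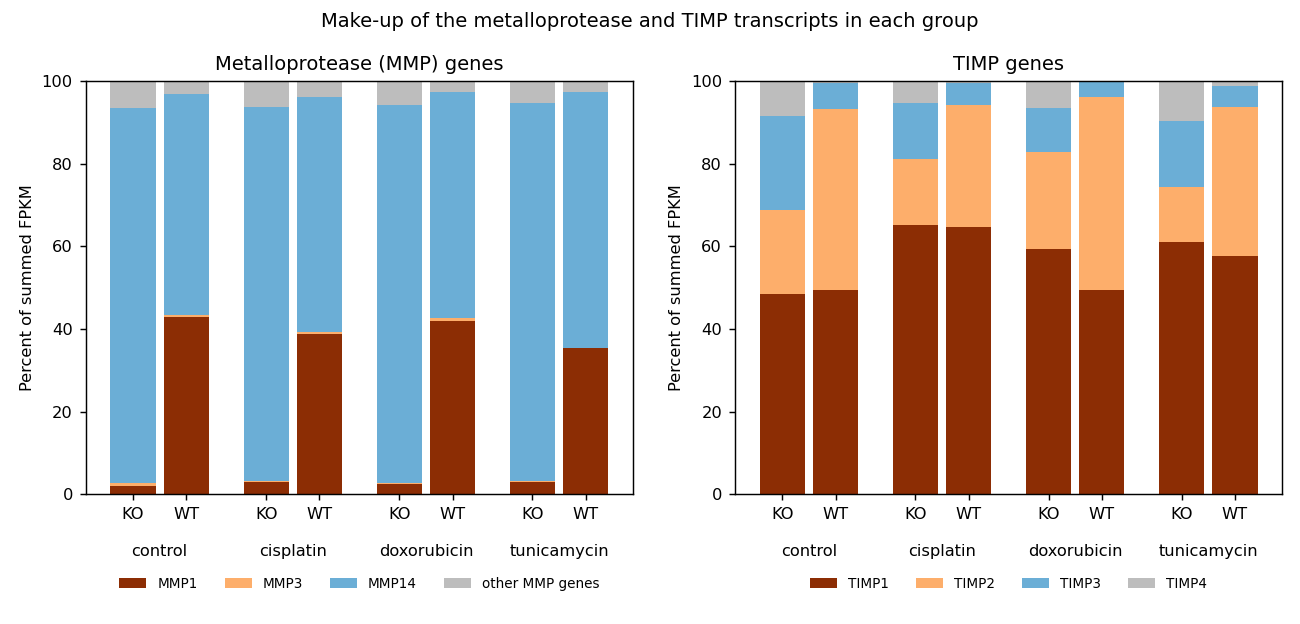
Percent of summed FPKM (vertical axis) taken by each gene among 23 metalloprotease genes (left) and the 4 TIMP genes (right), with 1 stacked bar per group and KO beside WT for each treatment. The MMP1 part is 1.99% to 2.96% of KO bars and 35.3% to 42.9% of WT bars, and TIMP2 has a smaller share, and TIMP3 and TIMP4 larger shares, in KO than in WT bars.

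TIMP1 was the largest part of the summed TIMP level in every group, at 48.4% to 65.1% in KO groups and 49.4% to 64.8% in WT groups. TIMP2 gave 13.3% to 23.5% in KO groups and 29.5% to 46.8% in WT groups. TIMP3 gave 10.5% to 22.7% in KO groups and 3.50% to 6.40% in WT groups. TIMP4, the remaining member of the family, gave 5.41% to 9.73% in KO groups and 0.288% to 1.09% in WT groups. The summed TIMP level over the summed metalloprotease level was 3.77 in KO control, 4.25 in KO cisplatin, 3.76 in KO doxorubicin and 2.44 in KO tunicamycin. In WT cells the same quotient was 1.76, 1.69, 1.93 and 1.20. All 4 KO values were above all 4 WT values, and no test is possible on these single values. That order leans on MMP1, which was 2.96% of the metalloprotease sum in KO tunicamycin and 42.9% in WT control. Without MMP1 in the sums, the quotient of KO tunicamycin would lie below that of WT control. The quotients describe transcripts and not active protein.

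Within a genotype, drug and control stand in different tables, so the response to a drug is given as a log2 ratio with a pseudocount of 1, and no test is possible. That scale understates low genes such as MMP3. Over all genes with at least 1 FPKM in a group the median response was 0.11 in KO cells and 0.10 in WT cells for cisplatin, -0.58 in both for doxorubicin, and -0.06 in KO cells and -0.05 in WT cells for tunicamycin. Doxorubicin values are best read against that shift, and they are followed here by the value after rescaling the groups by median-of-ratios factors.

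PLAU stood furthest from control among the 9 genes under cisplatin in both genotypes. Under cisplatin its log2 ratio to control was -1.58 in KO cells and -1.11 in WT cells. Under doxorubicin it was -1.74 in KO cells and -1.25 in WT cells (-1.18 and -0.70 after rescaling). After rescaling, TIMP1 and TIMP2 lay further from 0 than PLAU in both genotypes. In WT cells MMP1, MMP14, PLAUR and PLAT did too. Under tunicamycin PLAU was 2.01-fold below control in KO cells, while its WT log2 ratio was -0.01 and turned sign on rescaling (0.12). The KO over WT log2 ratio of PLAU in tunicamycin minus that in control was -0.99, a difference that was not tested.

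TIMP3 was below control under cisplatin (-1.07 in KO cells and -0.36 in WT cells) and tunicamycin (-1.02 in KO cells and -0.76 in WT cells). Under doxorubicin it was -0.64 in KO cells and -0.27 in WT cells, and rescaling moved these to -0.09 and 0.26. TIMP2 was below control under cisplatin by the same amount in both genotypes (-0.65 in KO cells and -0.65 in WT cells) and under tunicamycin (-1.12 in KO cells and -0.77 in WT cells). It was above control under doxorubicin (0.66 in KO cells and 0.68 in WT cells, or 1.21 and 1.23 after rescaling). Among the drugs, TIMP1 lay furthest from its own control level under doxorubicin, at 0.76 in KO cells and 0.59 in WT cells (1.31 and 1.14 after rescaling).

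**Figure D4:**
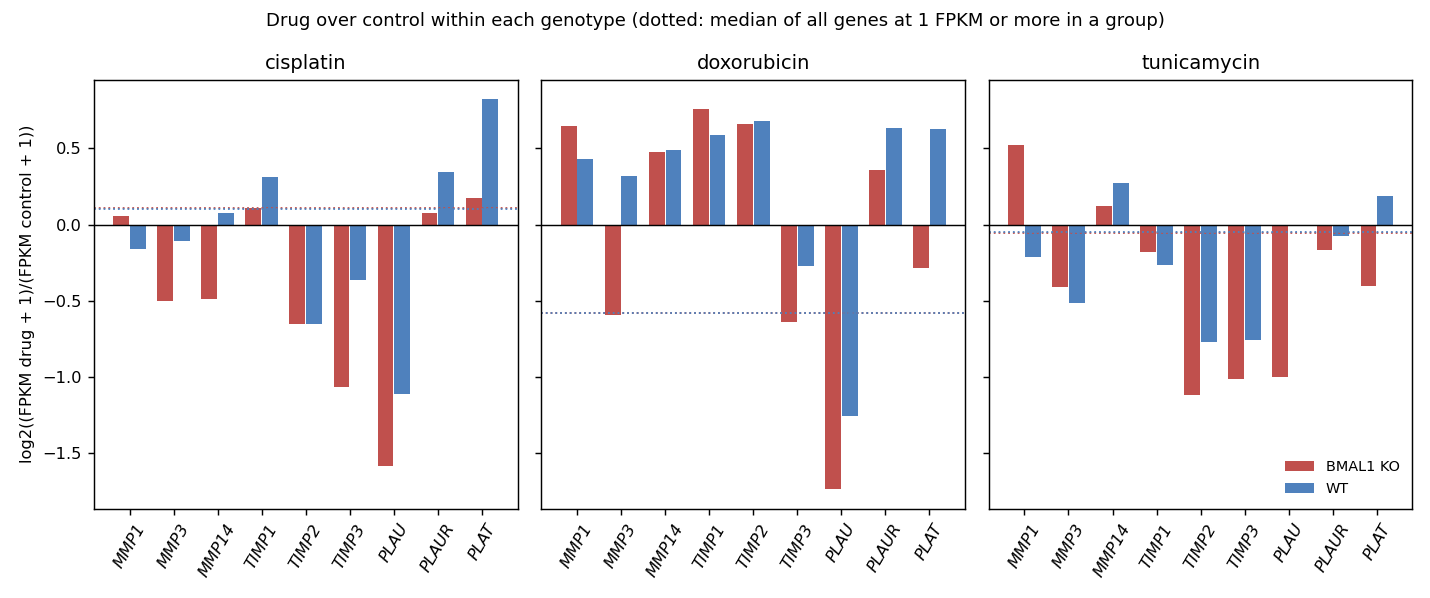
log2 ratio of drug over control FPKM with a pseudocount of 1 (vertical axis) for the 9 genes in KO cells (red) and WT cells (blue) under each drug; the dotted lines mark the median of all genes with at least 1 FPKM in a group. PLAU is at -1.58 and -1.74 in KO cells and -1.11 and -1.25 in WT cells under cisplatin and doxorubicin, and PLAT lies on opposite sides of 0 in KO and WT cells under doxorubicin and tunicamycin.

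PLAT had different drug values in KO and WT cells. Under cisplatin it was 0.18 in KO cells and 0.82 in WT cells, and under doxorubicin -0.29 in KO cells and 0.62 in WT cells (0.26 and 1.17 after rescaling, so the KO value changed sign). Under tunicamycin it was -0.40 in KO cells and 0.19 in WT cells. The KO over WT log2 ratio of PLAT minus that in control was -0.65 in cisplatin, -0.91 in doxorubicin and -0.59 in tunicamycin with a pseudocount of 1, and none of these differences was tested.

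MMP1 stayed low in KO cells under every drug. Its log2 ratio to control in KO cells was 0.05 under cisplatin, 0.65 under doxorubicin and 0.52 under tunicamycin, beside -0.16, 0.43 and -0.21 in WT cells. After rescaling the doxorubicin values were 1.10 in KO cells and 0.98 in WT cells. MMP14 was -0.49 under cisplatin in KO cells and 0.07 in WT cells, while doxorubicin gave 0.47 in KO cells and 0.49 in WT cells (1.03 and 1.04 after rescaling). PLAUR was 0.08, 0.36 and -0.17 in KO cells and 0.34, 0.63 and -0.08 in WT cells under cisplatin, doxorubicin and tunicamycin. After rescaling the doxorubicin values of PLAUR were 0.91 in KO cells and 1.19 in WT cells, and its WT tunicamycin value was 0.05.

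Beyond the 9 genes, 81 genes of the same systems were counted from lists chosen by function. Between 48 and 54 of them were tested in a table. In control 18 of 51 were called higher and 13 lower, where 22.7% of all tested genes were higher and 21.1% lower. The cisplatin table gave 10 of 52 higher and 31 lower (25.4% and 24.2% over all tested genes). Doxorubicin gave 16 of 48 higher and 15 lower (24.4% and 20.7% over all tested genes), and tunicamycin 16 of 54 higher and 21 lower (27.2% and 22.1% over all tested genes). Their median log2 ratio was 0.03, -0.20, 0.11 and -0.02 in control, cisplatin, doxorubicin and tunicamycin, beside 0.01, 0.02, 0.04 and 0.03 over all tested genes. Called higher throughout were 4 genes (TIMP4, SERPINE2, S100A10 and ADAM8), and 8 were called lower throughout, among them 7 shown here (MMP15, ANXA2, TFPI2, F3, FURIN, ADAM9 and ELK3). Of all 10881 genes tested in every table, 9% were called higher throughout and 8.66% lower. How many of the 81 genes were tested in every table was not counted.

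**Figure D5:**
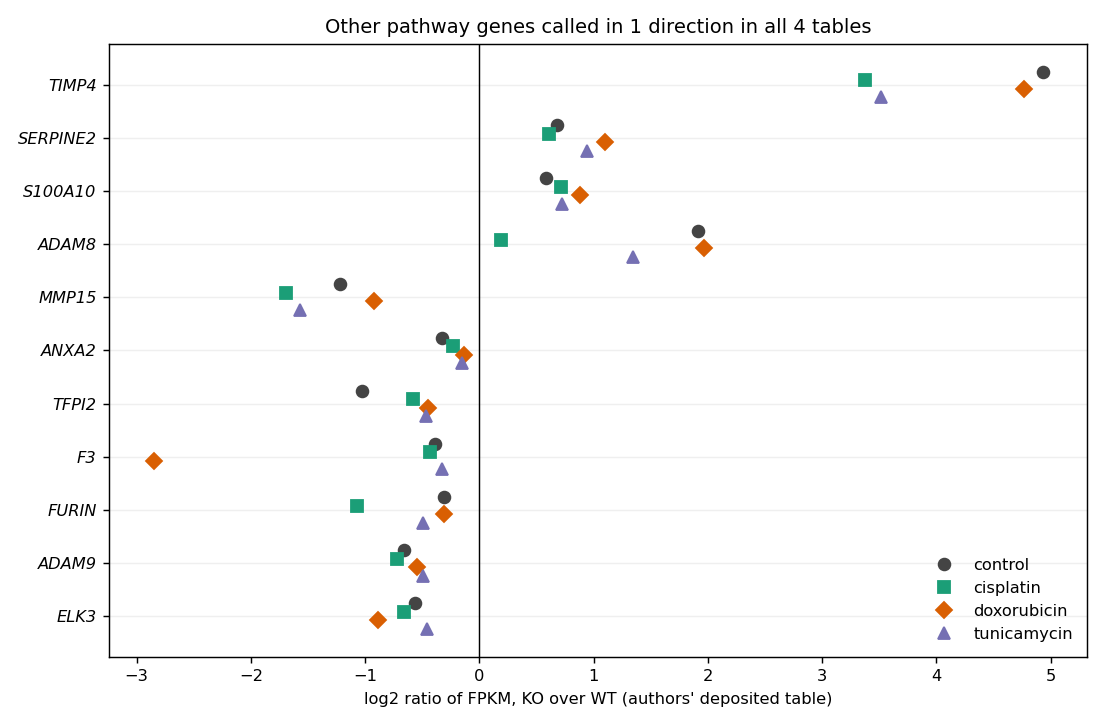
log2 ratio of KO over WT FPKM (horizontal axis, the authors' deposited tables) for 11 other pathway genes called in 1 direction in all 4 treatments, with 1 symbol per treatment. TIMP4 lies between 3.38 and 4.93, and F3 in doxorubicin is at -2.85.

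Among the inhibitors, TIMP4 had the largest difference. It had 41.9, 21.6, 45.1 and 33.8 FPKM in KO cells and 1.37, 2.08, 1.66 and 2.97 FPKM in WT cells in control, cisplatin, doxorubicin and tunicamycin. TIMP4 was 30.5-fold higher in control and 10.4-fold, 27.2-fold and 11.4-fold higher under the drugs, each at the smallest q of the authors' deposited table. SYN2, on the opposite strand of TIMP4, reached at most 0.346 FPKM. RECK, a membrane-anchored inhibitor of metalloproteases, was called lower in KO cells in control, cisplatin and doxorubicin (1.13, 0.624 and 1.70 FPKM in KO cells and 3.47, 1.54 and 3.81 FPKM in WT cells), and its tunicamycin q was 0.0615 in the authors' deposited table.

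Of the 20 other metalloprotease genes, 14 stayed under 1 FPKM in all 8 groups. MMP15 (MT2-MMP), a membrane-anchored relative of MMP14, was lower in KO cells in all 4 tables at 1.33, 1.31, 1.27 and 0.671 FPKM in KO cells and 3.10, 4.23, 2.40 and 1.99 FPKM in WT cells. MMP9 (gelatinase B) was called higher in KO cells in every table but doxorubicin, at 1.72, 0.662 and 1.45 FPKM in KO cells and 0.129, 0.0574 and 0.153 FPKM in WT cells. MMP9 is also a gene of leukocytes, whose marker PTPRC stayed under 0.1 FPKM, whereas CD68 carried the higher leukocyte marker sum of KO groups given above; the part of other cells in the MMP9 result was not tested.

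In the plasminogen system, SERPINE2 (protease nexin-1), an inhibitor of urokinase, was called higher in all 4 tables at 52.0, 56.2, 132 and 73.5 FPKM in KO cells and 32.5, 36.9, 61.5 and 38.3 FPKM in WT cells in control, cisplatin, doxorubicin and tunicamycin. PLG, which encodes plasminogen itself, was listed at 0 in all 8 groups. S100A10 and ANXA2, which form a plasminogen-binding complex at the cell surface, were called in opposite directions, S100A10 higher (log2 ratio 0.58 to 0.88) and ANXA2 lower (-0.33 to -0.14) in KO cells in the authors' deposited tables. VLDLR, an endocytic receptor, was called lower in control, cisplatin and tunicamycin (log2 ratio -2.59 to -1.14) and was not tested in doxorubicin (-2.44), in the authors' deposited tables. SERPINB6, an intracellular serpin, was called lower in the same tables as VLDLR (-0.57 to -0.29), and in doxorubicin it was tested but not called (-0.04). SERPINB8 was called higher in control and tunicamycin, with a log2 ratio of 0.66 in both of the authors' deposited tables. TFPI2, a matrix-bound serine protease inhibitor, lay between -1.03 and -0.45 in the authors' deposited tables.

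FURIN, which activates membrane-type metalloproteases, was called lower in KO cells in all 4 tables, with a log2 ratio of -1.07 in cisplatin and -0.50 to -0.31 in the others in the authors' deposited tables. ADAM8 and ADAM9, surface proteases of the ADAM family, were called in opposite directions, ADAM8 higher (log2 ratio 0.19 to 1.96) and ADAM9 lower (-0.72 to -0.49) in the authors' deposited tables. Of 16 ADAM and ADAMTS genes, 8 to 11 were tested in a table. In control 4 of 10 tested were called higher and 2 lower, in cisplatin 2 of 10 higher and 5 lower, in doxorubicin 3 of 8 higher and 2 lower, and in tunicamycin 5 of 11 higher and 3 lower. Calls in either direction made up 43.8%, 49.6%, 45.1% and 49.3% of all tested genes in the same order. ADAM10, a sheddase, was called lower in cisplatin (-0.70) and doxorubicin (-0.82) in the authors' deposited tables, and ADAM15 lower in cisplatin (-0.45) and tunicamycin (-0.24). ADAM19 was called higher in every table but cisplatin (0.46 to 0.68), ADAMTS15 higher in every table but doxorubicin (0.98 to 2.12) and ADAMTS6 lower in every table but doxorubicin (-1.45 to -0.58), all in the authors' deposited tables. In doxorubicin the authors did not test ADAMTS15 (log2 ratio 2.10) or ADAMTS6 (-2.50). TSPAN14, a tetraspanin that partners with ADAM10, was called lower under each drug (-0.88 to -0.47 in the authors' deposited tables). Of 14 AP-1, ETS and RUNX factors, families known to bind metalloprotease or PLAU promoters, 5 were called higher and 2 lower in control, beside 22.7% higher and 21.1% lower over all tested genes. Cisplatin gave 2 of 14 higher and 11 lower (25.4% and 24.2% over all tested genes). Doxorubicin gave 5 of 13 tested higher and 3 lower (24.4% and 20.7% over all tested genes), and tunicamycin 3 of 14 higher and 6 lower (27.2% and 22.1% over all tested genes). ELK3, an ETS factor, was the factor called lower in all 4 tables (log2 ratio -0.89 to -0.46 in the authors' deposited tables). FOSB, an AP-1 subunit, was called higher in every table but cisplatin (0.86 to 1.06), while FOSL2 was lower in cisplatin (-0.46) and tunicamycin (-0.76) in the authors' deposited tables. ETV5 was called lower in every table but doxorubicin (-0.42 to -0.17), ETS2 lower under each drug (-0.57 to -0.14), and JUND (-0.17) and RUNX1 (-0.30) lower in cisplatin alone, all in the authors' deposited tables.

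The genes whose levels ran most like those of the 9 genes were sought by Pearson's r of log2(FPKM + 1) over the 8 groups, as a description, among genes with at least 5 FPKM in a group and a range of at least 1 on the log2 scale. For MMP1 these were EFEMP1 (r = 0.996), CLEC11A (0.995) and UCA1 (0.991) out of 8447 genes. For TIMP3 they were PPARG (0.983), PFN2 (0.982) and ALDH3A2 (0.980), which also led by Spearman's rho. For PLAU the nearest was PCNX (0.937) and for PLAT MAPK8IP3 (0.970). Within the set, the levels of MMP1 and TIMP3 ran opposite to each other (r = -0.93) and those of TIMP1 and PLAUR together (r = 0.89). The groups share their genotype or treatment, and values from different tables share no scaling.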

How the data were processed

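Paired-end mRNA sequencing (TruSeq mRNA kit, HiSeq) was done on KO and WT cells under 4 treatments, per the labels' protocols. The tools used were FastQC 0.11.5, Trimmomatic 0.35, STAR 2.5.3, Cufflinks and Cuffdiff, with build hg38, per the submitters' processing notes. No source used here gives their settings, the annotation release or whether counting was stranded. Per the file headers, each of 4 deposited tables has a single FPKM for KO and a single one for WT. In the deposited tables the log2 ratio is KO over WT without a pseudocount, and the score is the authors' test statistic. The q-values deposited are the authors' p-values adjusted over a table by Benjamini-Hochberg, which recomputation matched to within 5.25e-07. Columns were assigned by the group codes in the tables and the group order in the names of the files.

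Levels, shares and drug ratios were computed with Python 3.11.15, pandas 2.3.3 and numpy 2.4.6. Because tables were normalized separately, tests stay within a table. The genes and lists were chosen with earlier results of these data known. All 9 genes are named, as are list genes called in all 4 tables, or called in at least 1 with at least 10 FPKM in a group. RECK, MMP9, PLG, MMP2, LRP1, PECAM1, CD68, COL1A1, COL1A2 and the cluster genes were named after their values were seen. Some list genes are counted but not reported here by name. Gene positions come from GENCODE release 29. Depth can be gauged only roughly: the 5th percentile of values above 0 in the WT control group was up to 2.74 times that of another group, and MMP3 is the gene it limits most. The calculations were tested on simulated data.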

Additional observations from a re-analysis of the deposited data

Results flagged for a closer look

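None of the 9 genes was called in opposite directions in 2 tables. Among the other pathway genes 8 were, and the difference between treatments was not tested for any of them. The share of all tested genes called in opposite directions was not computed, so the count cannot be read as a trait of these genes. In the authors' deposited tables THBD (thrombomodulin, a surface anticoagulant) had a log2 ratio of KO over WT of 1.34 in control and -0.87 in doxorubicin, which are 2.21 apart. JUN, a subunit of AP-1, stood at 1.17 in doxorubicin and -0.11 in cisplatin, 1.28 apart, in the authors' deposited tables. ADAM17, a sheddase of surface proteins, stood at 0.72 in tunicamycin and -0.38 in cisplatin, 1.11 apart, in the authors' deposited tables. JUNB, another AP-1 subunit, stood at 0.74 in doxorubicin and -0.31 in tunicamycin, 1.06 apart, in the authors' deposited tables. ETS1, an ETS factor, stood at 0.84 in tunicamycin and -0.14 in cisplatin, 0.98 apart, in the authors' deposited tables. BSG (basigin), an inducer of metalloproteases, stood at 0.04 in doxorubicin and -0.46 in cisplatin, 0.498 apart, in the authors' deposited tables. ENO1, an enolase that also binds plasminogen, stood at 0.31 in doxorubicin and -0.16 in cisplatin, 0.462 apart, in the authors' deposited tables. ETV4, an ETS factor, stood at 0.21 in doxorubicin and -0.20 in cisplatin, 0.413 apart, in the authors' deposited tables.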

How the results depend on the processing

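The number of genes called stayed within 1.5 times of the reported one in every table with a q of at most 0.01, with genes of at least 1 FPKM only, and after centring on the median of all tested genes. With genes of at least 1 FPKM only, MMP14 joined the calls in tunicamycin (7 genes). With a difference of at least 1.5-fold required, 4 genes were left in cisplatin and 5 in doxorubicin. With at least 2-fold, 3, 2, 4 and 3 were left in control, cisplatin, doxorubicin and tunicamycin, MMP1 and TIMP3 among them in each. These counts are smaller because the rule is stricter. Of 36 KO over WT ratios, no called one changed sign with a pseudocount of 1, after centring, or after subtracting the median of neighbours within 5 Mb. That subtraction turned the sign of 3 ratios that were not called: PLAT (0.20) and MMP14 (-0.17) in control, and MMP14 (-0.32) in doxorubicin. Of 54 drug responses, 17 moved by more than 0.2 on the log2 scale after rescaling, and 4 changed sign: PLAT in KO and TIMP3 in WT doxorubicin, and PLAU and PLAUR in WT tunicamycin. The 3 genes most like a member were the same by Spearman's rho for TIMP3 only; for MMP1, MMP3, PLAU and PLAUR 0 of 3 were shared. No paired analysis was possible because the tables hold 1 value per group, and leaving out a replicate was not run for the same reason. Protein sequences were not analysed here.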

Other observations

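FOSL1, an AP-1 subunit prominent in this line, and MMP1 stood on opposite sides of their control levels under doxorubicin. FOSL1 was at 3.65 FPKM in doxorubicin and 266 FPKM in control in KO cells, and at 9.26 FPKM in doxorubicin and 258 FPKM in control in WT cells. MMP1 was at 4.68 FPKM in doxorubicin and 2.62 FPKM in control in KO cells, and at 126 FPKM in doxorubicin and 93.1 FPKM in control in WT cells. Without drug FOSL1 was 266 FPKM in KO cells and 258 FPKM in WT cells (q = 0.213 in the authors' deposited table), beside the 35.5-fold lower MMP1. Under the drugs FOSL1 was called lower in KO cells, the direction of MMP1, with a log2 ratio of -0.79 in cisplatin, -1.34 in doxorubicin and -0.32 in tunicamycin, each at the smallest q of the authors' deposited tables. The low doxorubicin level was not particular to FOSL1. Between WT control and WT doxorubicin JUN stood at 43.5 and 2.31 FPKM, JUNB at 23.9 and 2.87, JUND at 68.2 and 1.98 and FOSL2 at 52.5 and 2.32. FOS was at 2.66 and 2.65 FPKM, and FOSB was higher in doxorubicin (1.03 and 11.3 FPKM). A relation between FOSL1 and MMP1 was not tested.

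F3, tissue factor of the coagulation cascade, was at 5.62 FPKM in KO cells and 40.5 FPKM in WT cells under doxorubicin (log2 ratio -2.85 in the authors' deposited table), against -0.43 to -0.33 in the other treatments; the difference between treatments was not tested. MMP9 in doxorubicin had 2.03 FPKM in KO cells and 0.0643 FPKM in WT cells, its largest ratio (31.6-fold), yet q was 0.168 in the authors' deposited table. LRP1, a receptor that clears protease and inhibitor complexes, was lower in KO cells in cisplatin, doxorubicin and tunicamycin (log2 ratio -1.53, -1.20 and -1.01 in the authors' deposited tables).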
